A study of Mus musculus with 18 samples.

Results

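The 10 genes described here carry glucose from the medium to lactate: the transporters Slc2a1 and Slc2a3 and the enzymes Hk1, Hk2, Pfkp, Aldoa, Pgk1, Eno1, Pkm and Ldha. They were chosen by name, with earlier results of these data known, and found in the count table by their Ensembl mouse gene identifiers. They are 10 of 46078 genes in the table, and all 10 were among the 13438 protein-coding genes tested. The counts came from E14 mouse embryonic stem cells, a wild-type line of 129 background, kept in serum and LIF and collected 24 h after plating on fibronectin-coated StemBond hydrogels. The polyacrylamide gels had a stiffness of about 750 Pa (soft) or about 160 kPa (stiff). At each stiffness the co-factor AHA, which ties the matrix protein to the gel, was present at 16 mM (low), 48 mM (mid) or 80 mM (high). Each of the 6 groups had 3 libraries, 18 in all. All cells were from 1 line, and the labels do not say whether the 3 libraries of a group were separate cultures, so the p-values measure the spread between these libraries, which may be technical.

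Glucose enters cells down its gradient through the facilitative carriers of the Slc2a family and is phosphorylated by hexokinase, which traps it. Phosphofructokinase commits the sugar to glycolysis, aldolase splits it, and phosphoglycerate kinase and pyruvate kinase return ATP. Lactate dehydrogenase turns pyruvate into lactate and regenerates NAD. Mouse embryonic stem cells are known for rapid glycolysis even when oxygen is present, and several of these genes are known targets of the hypoxia-inducible factor HIF.

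In the average over AHA, Slc2a1, Ldha and Slc2a3 fell on soft gels and Pfkp rose, while the other 6 genes did not pass the test. Of those 6, Aldoa was called at mid AHA alone. In that average the level on soft relative to stiff fell by 14.3% for Slc2a1, fell by 8.20% for Ldha and fell by 5.04% for Slc2a3, and it rose by 13.5% for Pfkp. No gene of the 10 was called for a difference between AHA concentrations. Calls here mean a Benjamini-Hochberg adjusted p under 0.05 over all 13438 genes in edgeR's quasi-likelihood test.

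Protein-coding counts ran from 4086447 to 6502650 per library, and levels are given as CPM, protein-coding counts scaled to a common library size by TMM. The first soft, high AHA library held 1.37% ERCC spike-in reads against 0.607 to 0.725% in the others, and it was left out of the fit, as the study left out libraries with a high ERCC share, so 17 libraries entered it. Replicate pairs differed from each other by 1.81 to 3.00 times the sampling noise (chi-square over its degrees of freedom), so no library repeats another. Of 10 stem cell markers 7 rose on soft gels and 1 fell (3.77% and 4.82% of all tested genes), with a summed level of 2326 to 2517 CPM on soft and 2120.3 to 2306 on stiff. The sums of 6 primitive endoderm markers (20.4 to 25.6 CPM on soft, 16.7 to 24.96 on stiff), 5 trophoblast markers (45.6 to 69.8 and 62.0 to 74.7) and 6 fibroblast markers (106 to 185 and 159 to 225) lay far below that of the stem cell markers. Within these lists Hand1 and Col1a1 fell on soft, no primitive endoderm marker was called, and Elf5, Tpbpa, Dcn and Lum were too low to test. The part of these marker differences in the results below was not tested, and in bulk RNA fewer cells of a type and less RNA per cell cannot be told apart.

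The sequence just upstream of 3 called genes shows where ACGTG, a form of the short HIF core motif, lies. Up to 250 bases before the RefSeq start of each gene are given 5′ to 3′ on GRCm38.p6, credited to RefSeq, and capitals mark ACGTG on either strand. The Slc2a1 stretch ends 20 bases into the first annotated exon of the gene, the Ldha stretch lies within the annotated span of the gene but in no annotated exon, and the Pfkp stretch runs up to the RefSeq start. Slc2a3 had no entry in the table of promoters.
Slc2a1 (chr4:119108495-119108730, plus strand): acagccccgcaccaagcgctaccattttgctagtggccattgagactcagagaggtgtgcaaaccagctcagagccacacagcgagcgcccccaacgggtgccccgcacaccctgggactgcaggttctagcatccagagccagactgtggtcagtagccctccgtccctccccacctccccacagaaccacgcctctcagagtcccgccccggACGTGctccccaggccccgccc
Ldha (chr7:46845554-46845803, plus strand): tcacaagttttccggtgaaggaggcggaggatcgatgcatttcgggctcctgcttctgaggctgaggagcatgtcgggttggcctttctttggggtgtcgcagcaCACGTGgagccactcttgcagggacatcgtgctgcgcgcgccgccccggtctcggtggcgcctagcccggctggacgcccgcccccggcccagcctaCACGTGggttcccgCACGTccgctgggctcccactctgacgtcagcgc
Pfkp (chr13:6648772-6649021, minus strand): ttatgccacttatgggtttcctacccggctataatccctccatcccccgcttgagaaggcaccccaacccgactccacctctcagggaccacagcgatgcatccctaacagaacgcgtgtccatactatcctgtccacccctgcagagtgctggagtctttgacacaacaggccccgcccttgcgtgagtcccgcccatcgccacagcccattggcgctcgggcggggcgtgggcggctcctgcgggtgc
Slc2a1 held 1 match of ACGTG close to its start, Ldha held 5 and Pfkp held 0. The other form of the core, GCGTG, was not searched. The Pfkp stretch holds GCGTG, so a count of 0 here covers ACGTG alone. Of the genes not called in the average, Hk2 and Pgk1 held 2, Aldoa and Pkm 1 in at least 1 of their promoters, and Hk1 and Eno1 held 0. Each CACGTG, the E-box, counts in Ldha once on each strand, and that stretch has 2 of them. Among 16 promoters of the 9 genes with an entry, 7 (43.8%), belonging to 6 genes, held ACGTG in the 250 bases, against 21.2% of 13461 promoters of tested genes. Promoters of 1 gene can overlap, and 2 of the 7 are overlapping promoters of Aldoa that hold the same match. CACGTG was found in 6.25% and 8.22%. A match is a run of letters, not a site, and the second Ldha promoter in the table held no match.

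**Figure D1:**
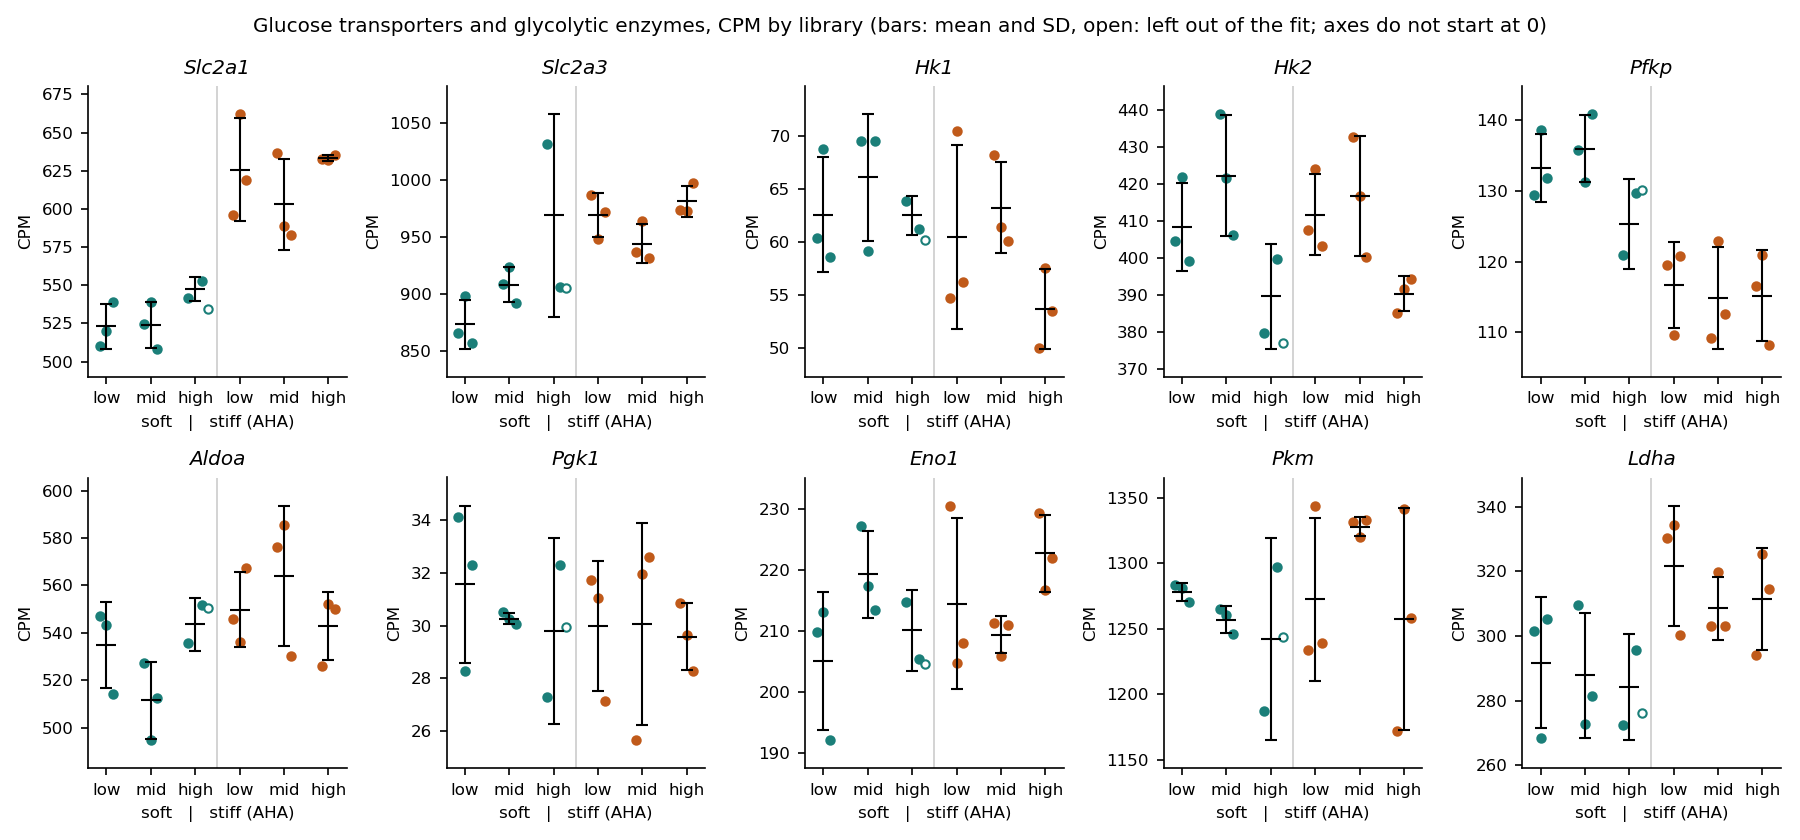
Level of each of the 10 genes in CPM (vertical axis, a separate range per gene that does not start at 0) in the 6 groups, soft gels in green and stiff gels in orange by AHA concentration. Points are libraries, bars show mean and SD, and the open point is the soft, high AHA library left out of the fit. The 8 fitted soft libraries of Slc2a1 all lie below the 9 stiff ones.

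Slc2a1 (chr4:119108711-119137983, ENSMUSG00000028645), which encodes GLUT1, the carrier for basal glucose uptake in most cells, gave the clearest difference of the 10. On soft gels its level was 510.1, 520.2 and 539 CPM at low AHA, 525, 539 and 508 CPM at mid AHA, and 542 and 553 CPM at high AHA. On stiff gels it was 596, 662 and 619 CPM at low AHA, 637, 589 and 583 CPM at mid AHA, and 633, 632 and 636 CPM at high AHA. The 8 soft libraries did not overlap the 9 stiff ones, a separation found in 1.27% of all tested genes and in no other gene of the 10. The means were 529.5 ± 16.1 CPM on soft (SD, n = 8) and 621 ± 26.3 CPM on stiff (SD, n = 9). The difference averaged over AHA was -0.22 ± 0.024 in log2 (SE), with an adjusted p of 1.7e-13 in edgeR. It was called at each concentration alone, at -0.26 ± 0.041 at low AHA (adjusted p = 1.07e-06), -0.20 ± 0.041 at mid AHA (adjusted p = 2.97e-04) and -0.21 ± 0.045 at high AHA (adjusted p = 0.00275). At high AHA the call was lost without the second soft library (-0.20, adjusted p = 0.0598). That fit leaves 1 soft library there, which is assumed to vary like the libraries of the other groups, and its difference stayed near the -0.21 above. The library left out of the fit read 534 CPM, inside the soft range. Exons of the opposite-strand gene Gm12868 overlap 2.99% of the exon bases of Slc2a1, and the counting gives no strand setting in the sources used here.

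Slc2a3 (chr6:122727809-122801640, ENSMUSG00000003153) encodes GLUT3, a carrier with high affinity for glucose. On soft gels it read 866, 898 and 857 CPM at low AHA, 908, 923 and 892 CPM at mid AHA, and 1032 and 906 CPM at high AHA. On stiff gels it read 987, 948 and 972 CPM at low AHA, 937, 964 and 932 CPM at mid AHA, and 973, 973 and 997 CPM at high AHA. Every soft library but the second at high AHA lay below every stiff library, and that one was the highest of all 17. The average difference was -0.075 ± 0.022 in log2 (adjusted p = 0.0164, edgeR). The call was lost without the third soft library at high AHA (-0.045, adjusted p = 0.298), the third soft library at low AHA (-0.066, adjusted p = 0.0585) or the second stiff library at mid AHA (-0.066, adjusted p = 0.0634). Without the second soft library at high AHA, the highest one, the difference was -0.11. At low AHA alone it was -0.15 ± 0.037 (adjusted p = 0.00517), a call lost without the third soft library (adjusted p = 0.0670) or the first stiff library (adjusted p = 0.0651) of that concentration. At mid AHA it was -0.057 ± 0.037 and at high AHA -0.017 ± 0.041, neither called. The change of the stiffness difference with AHA was itself not called (adjusted p = 0.739 in edgeR).

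Measured against each other inside each library, the pair of carriers shifted. The log2 ratio of Slc2a3 to Slc2a1 counts was 0.78 ± 0.076 on soft (SD, n = 8) and 0.64 ± 0.068 on stiff (SD, n = 9). The difference, averaged over AHA, was 0.15 and had a p of 0.0005 in a two-sided exact permutation test over 4000 relabellings within AHA (adjusted p = 0.0015 over 6 pairs). Such a ratio needs no scaling between libraries, and it shows an unequal change of the pair rather than which of them changed.

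Hexokinases did not pass the test. Hk2 (chr6:82725025-82774454), the inducible hexokinase that sits on mitochondria, read 380 to 439 CPM on soft and 385 to 433 CPM on stiff, overlapping throughout, and its difference was 0.0023 ± 0.026 with a 95% interval of -0.049 to 0.054 in log2. Hk1 (chr10:62268855-62379908), the housekeeping hexokinase, was counted far less, at 58.6 to 69.6 CPM on soft and 50.03 to 70.5 CPM on stiff. Its difference of 0.12 ± 0.055 had an interval of 0.011 to 0.23 and an adjusted p of 0.184 in edgeR. Per kb of exon Hk2 stood at 68.3 CPM per kb and Hk1 at 7.20. The log2 ratio of Hk2 to Hk1 was 2.68 ± 0.100 on soft and 2.78 ± 0.115 on stiff, a difference of -0.11 that was not called in the exact permutation test (p = 0.072, adjusted p = 0.108). Exons of Hk1os on the opposite strand cover 1.84% of the exon bases of Hk1.

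Pfkp (chr13:6579768-6648777, ENSMUSG00000021196), the platelet-type phosphofructokinase, went the other way from Slc2a1. On soft gels it read 129, 139 and 132 CPM at low AHA, 136, 131 and 141 CPM at mid AHA, and 121 and 129.8 CPM at high AHA. On stiff gels it read 119.6, 109.7 and 121 CPM at low AHA, 109.2, 123 and 113 CPM at mid AHA, and 116, 121 and 108 CPM at high AHA. The groups overlap through the second soft library at high AHA, and the other 7 soft libraries exceed all 9 stiff ones. The average difference was 0.18 ± 0.040 in log2 (adjusted p = 3.28e-04, edgeR). By concentration it was 0.19 ± 0.066 at low AHA (adjusted p = 0.119), 0.24 ± 0.066 at mid AHA (adjusted p = 0.0188) and 0.12 ± 0.074 at high AHA (adjusted p = 0.601). The mid AHA call was lost without any 1 of 4 libraries, soft replicates 1 and 3 and stiff replicates 1 and 3 of that concentration, with adjusted p of 0.0529, 0.111, 0.131 and 0.0916, at log2 differences of 0.25, 0.21, 0.21 and 0.22. Against its liver-type paralogue Pfkl in the same library, the log2 ratio was -0.65 ± 0.079 on soft and -0.88 ± 0.094 on stiff, a difference of 0.22 (exact permutation p = 0.00075, adjusted p = 0.0015). Pitrm1, a neighbour on the opposite strand, covers 5.58% of the exon bases of Pfkp.

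Aldoa (chr7:126795234-126800751), the main aldolase of growing cells, had its soft libraries at 495 to 552 CPM and its stiff libraries at 526.1 to 585 CPM. At mid AHA it read 527, 495 and 512 CPM on soft against 576, 585 and 530.2 CPM on stiff, with every stiff value the higher. That difference, -0.14 ± 0.041, was called (adjusted p = 0.0331, edgeR), but it was lost in DESeq2 (adjusted p = 0.0543), with total-count scaling (0.0770), with a looser filter (0.0547) and with genes of all biotypes (0.0643), at log2 differences of -0.14 to -0.12. It was also lost on leaving out soft replicate 2 or 3 or stiff replicate 1 or 2 at mid AHA, or stiff replicate 3 at low AHA, with adjusted p from 0.0505 to 0.313 and log2 differences of -0.14 to -0.11. Averaged over AHA the difference was -0.060 ± 0.025 (adjusted p = 0.126). The ratio of Aldoa to Aldoc, the low-level brain-type aldolase, was not called (0.032, exact permutation p = 0.81).

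Phosphoglycerate kinase, enolase and pyruvate kinase did not pass the test. Pgk1 (chrX:106187100-106203699) read 27.3 to 34.1 CPM on soft and 25.7 to 32.6 CPM on stiff, with a difference of 0.027 ± 0.076 and a 95% interval of -0.12 to 0.18, and the widest spread of the 10 within groups, a median SD of 8.84% of the mean. Eno1 (chr4:150236721-150248879), the enolase of most cells, read 192 to 227 CPM on soft and 205 to 231 CPM on stiff, at -0.029 ± 0.032 with an interval of -0.092 to 0.034. Its ratio to Eno2, the neuronal enolase, differed by -0.057 (exact permutation p = 0.803). Pkm (chr9:59656368-59679375), pyruvate kinase of muscle and embryonic type, was the highest of the 10 at 1188 to 1297 CPM on soft and 1172 to 1344 CPM on stiff. Its difference was -0.029 ± 0.022 with an interval of -0.072 to 0.013.

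Ldha (chr7:46841475-46855627, ENSMUSG00000063229), the muscle-type lactate dehydrogenase subunit, fell on soft gels in the average. On soft gels it read 302, 269 and 305 CPM at low AHA, 309.6, 273 and 281 CPM at mid AHA, and 273 and 296 CPM at high AHA. On stiff gels it read 330.4, 334 and 300.2 CPM at low AHA, 303, 319.7 and 303 CPM at mid AHA, and 294, 325 and 314 CPM at high AHA. The groups overlap between 294 and 309.6 CPM. The average difference was -0.12 ± 0.030 in log2 (adjusted p = 0.00176, edgeR), and the separate differences of -0.14 ± 0.050, -0.10 ± 0.049 and -0.13 ± 0.055 at low, mid and high AHA were not called. Ldhb (chr6:142490249-142507957), the heart-type subunit of the same enzyme, rose by 0.21 ± 0.056 (adjusted p = 0.00458), from 47.04 to 58.4 CPM on stiff to 56.01 to 69.7 CPM on soft. The log2 ratio of Ldha to Ldhb was 2.20 ± 0.108 on soft and 2.54 ± 0.076 on stiff. All 8 soft libraries, at 2.03 to 2.38, lay under all 9 stiff ones, at 2.45 to 2.68. The difference of -0.34 had a p of 0.00025, the smallest the exact permutation test can give, and an adjusted p of 0.0015. This ratio draws on the same counts as the opposite calls of Ldha and Ldhb. The share of all gene pairs that separate in this way was not computed.

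**Figure D2:**
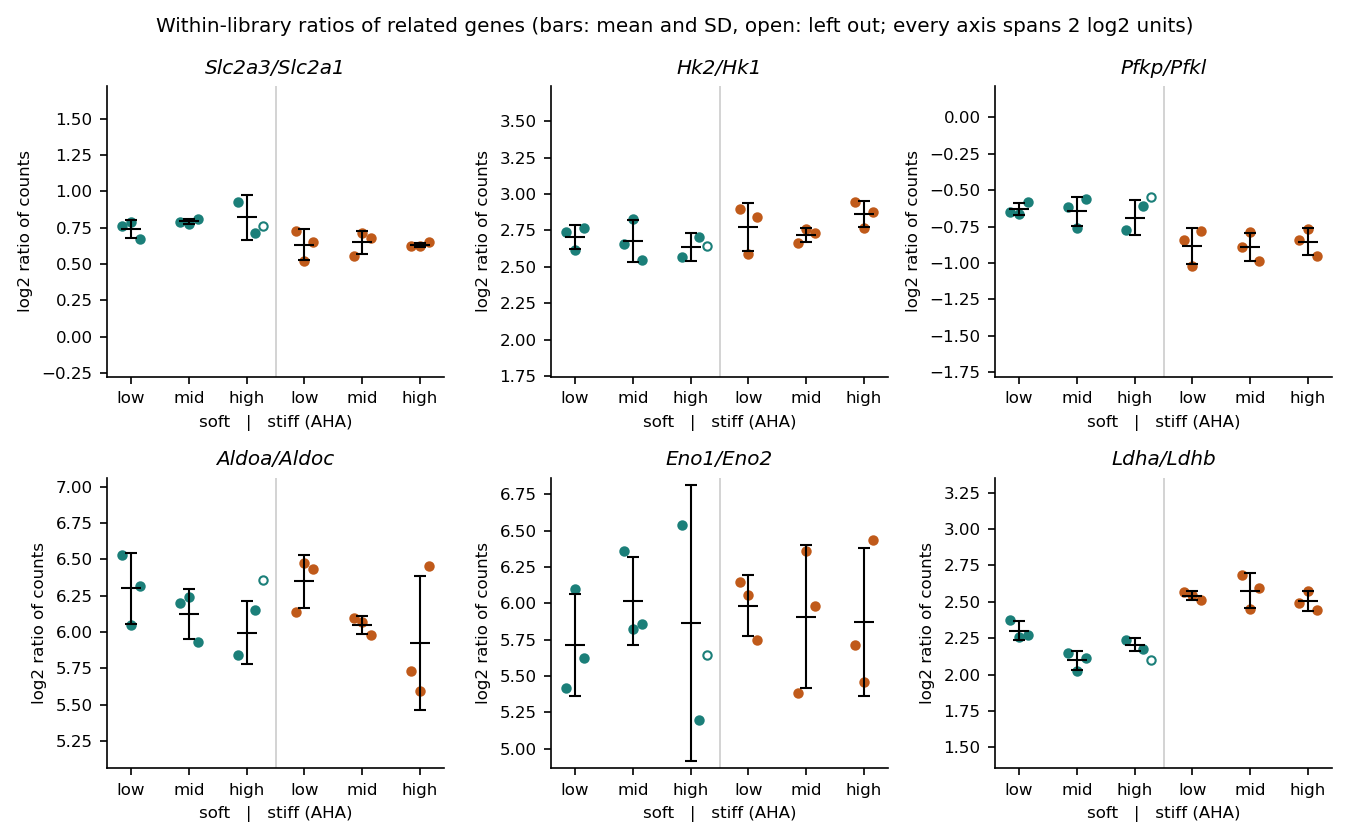
Log2 ratio of the counts of 6 pairs of related genes within each library (vertical axis, each spanning 2 log2 units), by stiffness and AHA. Points are libraries, bars show mean and SD, and the open point is the library left out. Ldha/Ldhb separates soft from stiff without overlap, and Aldoa/Aldoc and Eno1/Eno2 scatter widely.

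Of the full set, 4 of the 10 genes were called in the average over AHA, 3 lower and 1 higher on soft, against 8.59% of all tested genes called, 4.82% lower and 3.77% higher. Of the 10, 4 had a positive and 6 a negative difference, with a median of -0.029 in log2 beside 0.0011 for all tested genes. The median absolute difference of the 10 was 0.067 in log2, below the 0.086 of all tested genes. The larger share called therefore does not mean larger differences. At low AHA 2 were called (3.04% of all genes), at mid AHA 3 (2.86%) and at high AHA 1 (0.841%). The differences were small for all of them: the ratio of the highest to the lowest of the 6 group means was between 1.07 for Pgk1 and Pkm and 1.23 for Hk1, with a median within-group spread for Hk1 of 7.87% of the mean.

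**Figure D3:**
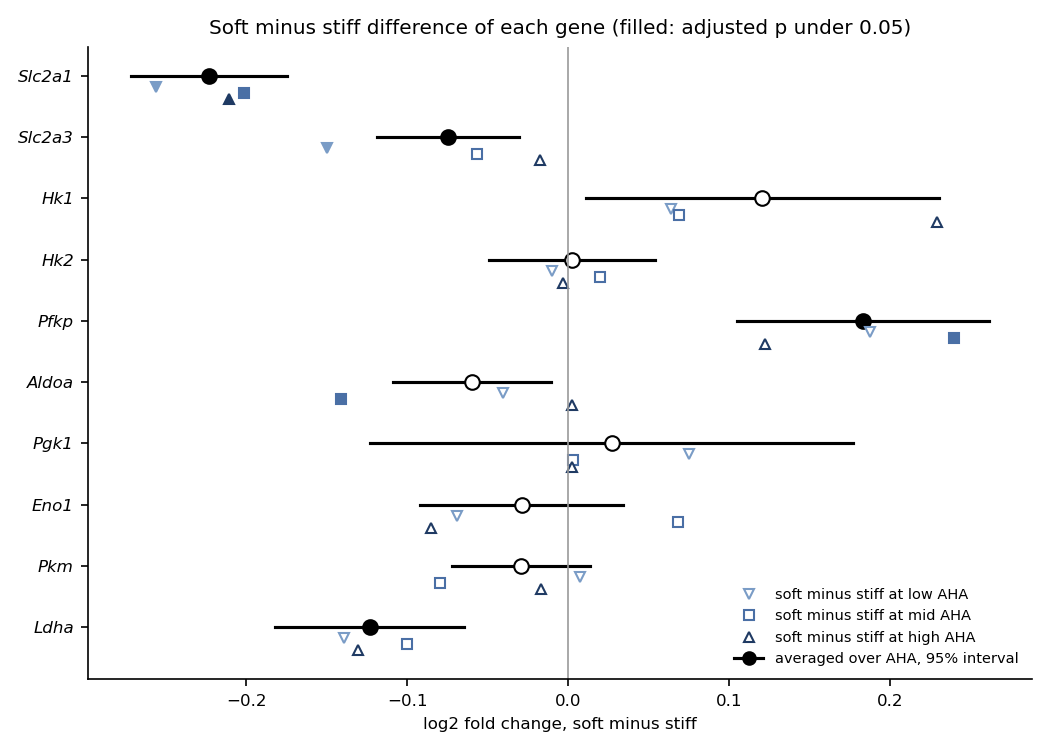
Log2 fold change on soft relative to stiff gels (horizontal axis) for each of the 10 genes. Black circles give the average over AHA with its 95% interval, small symbols the single AHA concentrations, and filled symbols an adjusted p under 0.05. Slc2a1, Slc2a3 and Ldha lie to the left and Pfkp to the right.

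AHA concentration moved none of the 10 genes past the threshold. High against low AHA called 0 of 10 on soft (0.253% of all genes called), with 1 of the 10 and 8.51% of all genes at an unadjusted p under 0.05, and 0 of 10 on stiff (0.00744% called), with 0 of the 10 and 6.04% of all genes below that unadjusted p. The test over all 3 concentrations called 0 on soft (0.201%; unadjusted 1 of 10 and 8.22% of all genes) and 0 on stiff (0.00744%; unadjusted 1 of 10 and 6.08%), and the interaction of stiffness with AHA called 0 (0.0298%; unadjusted 1 of 10 and 6.71%), all in edgeR, with 0 in DESeq2 as well. Slc2a3 on soft came nearest, with high AHA above low AHA by 0.15 ± 0.041 in log2 (edgeR adjusted p = 0.0901). It passed the threshold without the third soft library at high AHA, which leaves there only the library at 1032 CPM, again assumed to vary like the other groups, so 1 library decides that value. Across the 6 groups Slc2a1 was highest on stiff at high AHA and lowest on soft at low AHA, and 2 of its 5 neighbouring pairs in that order stood apart by more than their SDs. For Slc2a3, Hk2 and Pkm 1 neighbouring pair did, and for the other 6 genes none did.

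Among tested genes outside the 10, those whose 6 group means of log2 CPM, centred, lay closest to Slc2a1 were Pim1, Slc16a3 and Rhbdf1. Their root mean square distances over the 6 groups were 0.0089, 0.022 and 0.023, where the median tested gene lay at 0.156. Pim1 encodes a serine/threonine kinase, Slc16a3 the lactate exporter MCT4 and Rhbdf1 an inactive rhomboid protein. They were picked by their pattern, so their likeness is a description.

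The wider pathway was followed by lists of named genes, chosen with earlier results of these data known. For each count in the average over AHA, the share called among all tested genes, 8.59%, is the background, without a test. Of 24 other glycolytic enzyme genes 18 were tested, 1 (Ldhb) was called higher and 0 lower, and 15 of the 18 had a negative difference, with a median of -0.050. Of 12 other sugar transporters 7 were tested and 0 called. Of these 7, 6 had a positive and 1 a negative difference, with a median of 0.296 in log2, SEs of 0.14 to 0.50 and soft and stiff means of 0.739 to 9.43 CPM. Of 22 genes for control of glycolytic flux and for pyruvate and lactate handling 21 were tested, and 2 were called, both lower on soft. Pfkfb3 (chr2:11471433-11554077) makes the enzyme that raises fructose-2,6-bisphosphate, the activator of phosphofructokinase. It stood at 43.0 to 60.8 CPM on soft and 56.8 to 68.2 CPM on stiff, a difference of -0.34 ± 0.057 (adjusted p = 1.25e-06), and was -0.54, -0.33 and -0.15 at low, mid and high AHA, called at low and mid AHA but not at high AHA (adjusted p = 0.671), with an interaction adjusted p of 0.723. Slc16a3 (chr11:120948480-120960868) stood at 71.4 to 80.5 CPM on soft and 85.8 to 92.5 CPM on stiff, without overlap, as in 1.27% of all tested genes. Its difference was -0.23 ± 0.047 (adjusted p = 1.12e-04, edgeR), and of the single concentrations Slc16a3 was called at low AHA alone. Ldhb was called at mid AHA alone.

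The pentose phosphate list had 0 of 7 genes called. Among 8 HIF pathway components 1 was called, Egln1, the oxygen-sensing prolyl hydroxylase, at -0.21 ± 0.069 (adjusted p = 0.0446), while Hif1a itself was at 0.024 ± 0.032. Of 15 HIF targets outside glycolysis 1 rose, the histone demethylase Kdm3a at 0.14 ± 0.031 (adjusted p = 7.32e-04), and 1 fell, Ankrd37 at -0.60 ± 0.204 (adjusted p = 0.0450) from 3.42 to 6.91 CPM on stiff to 1.81 to 4.79 CPM on soft. Kdm3a was called at mid AHA alone of the single concentrations, and Egln1 and Ankrd37 at none of them. With 1 of 8 and 2 of 15 called, the HIF lists lie near the background of 8.59%. The list medians were -0.014 for the pentose phosphate genes, -0.0019 for the HIF components and 0.028 for the HIF targets.

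**Figure D4:**
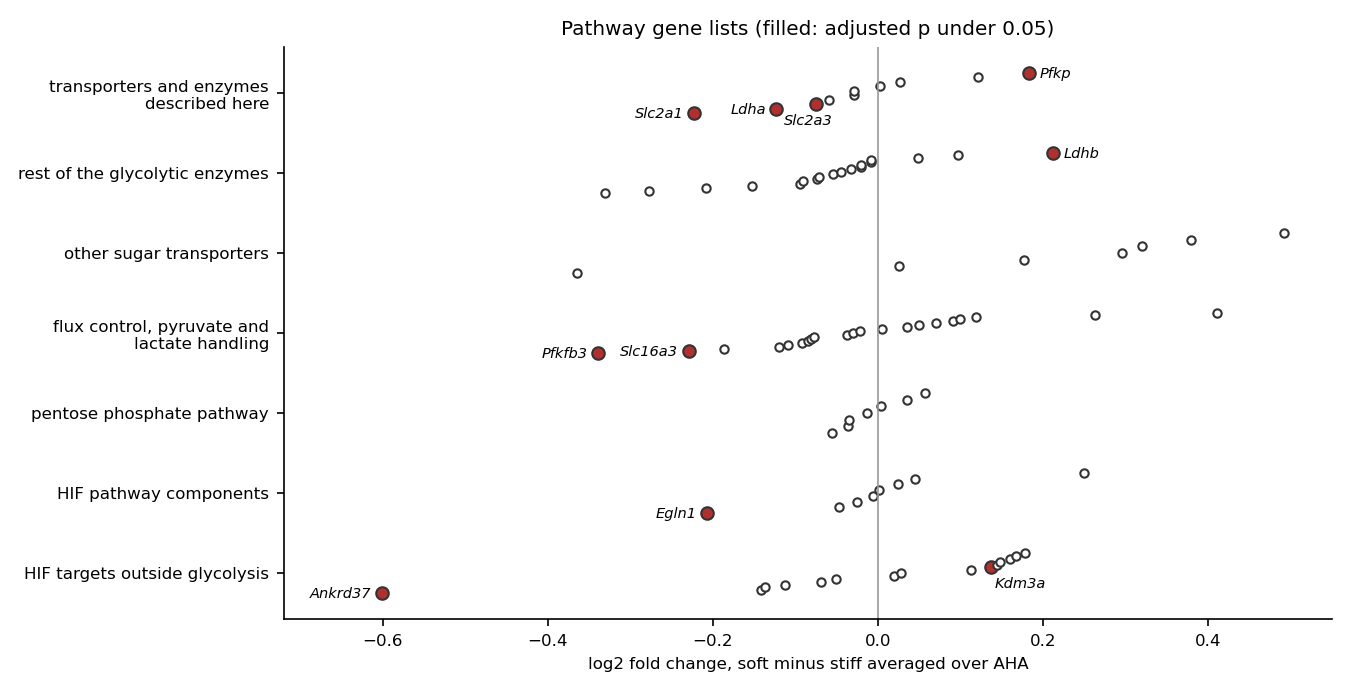
Log2 fold change on soft relative to stiff gels averaged over AHA (horizontal axis) for every tested gene of 7 lists (rows). Filled, named points have an adjusted p under 0.05. Pfkfb3, Slc16a3, Egln1 and Ankrd37 lie left of 0 and Ldhb and Kdm3a right of it.

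Annotated pseudogenes bear on 5 of the enzymes. A BLASTN search of each coding sequence against the GENCODE transcripts (at least 90% identity over at least 300 bases) found none for Slc2a1, Slc2a3, Hk1, Hk2 and Pfkp, and found 2 for Aldoa, 4 for Pgk1, 5 for Eno1, 6 for Pkm and 11 for Ldha. Of these 1, 2, 2, 5 and 9 have a row in the count table. Windows of 75 bases slid along the coding sequence show how much of each gene can be told apart. All 1177 windows of Pgk1 occur exactly in another annotated gene, as do 75.2% of those of Eno1, 30.2% of Pkm, 9.02% of Ldha, 2.21% of Slc2a1 (in the opposite-strand Gm12868) and 1.86% of Aldoa, and none of Slc2a3, Hk1, Hk2 and Pfkp. The read length is not given in the sources used here, so 75 is a chosen length, and copies without a transcript annotation were not searched.

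**Figure D5:**
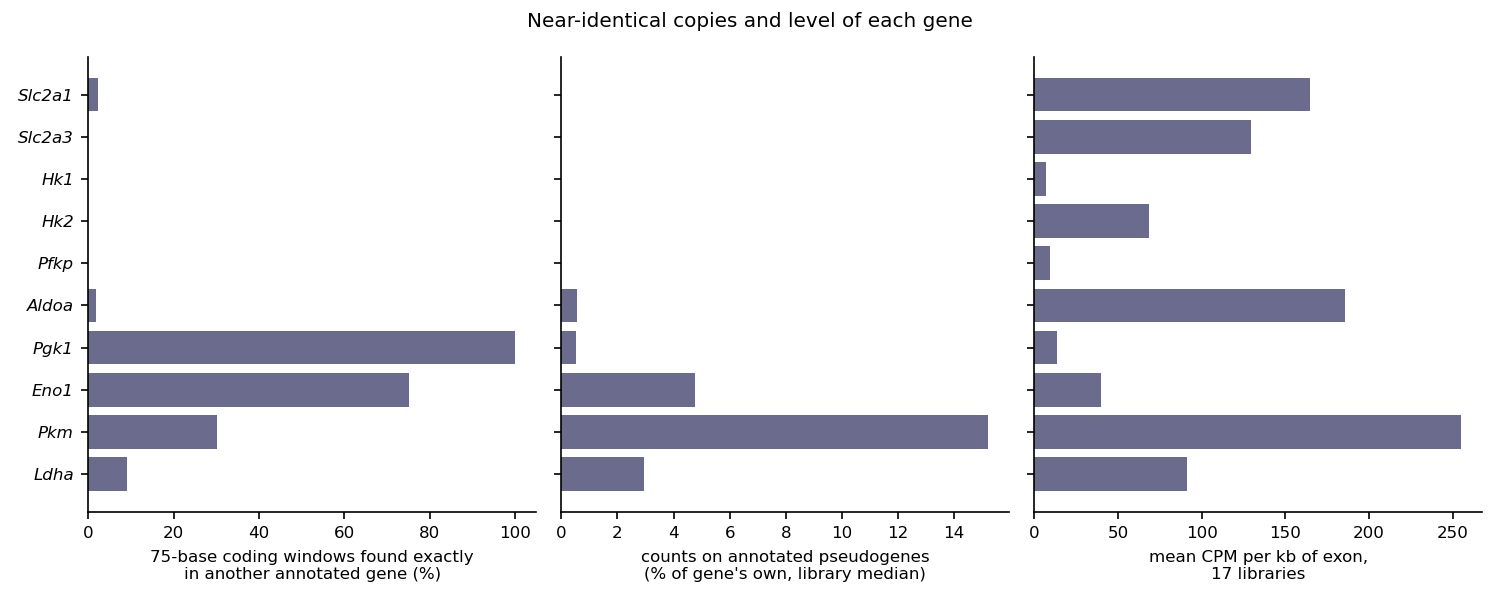
For each of the 10 genes, the percent of 75-base coding windows found exactly in another annotated gene (left), the counts on its annotated pseudogenes as a percent of its own counts (middle, median of the 17 fitted libraries) and its mean CPM per kb of exon (right). Pgk1 has every window shared and 13.5 CPM per kb, and Pkm has the largest pseudogene counts. Copies annotated as coding, among them Eno1b, are not in the middle panel.

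Levels per kb of exon, with all annotated exons of a gene joined, followed the order Pkm 255 CPM per kb, Aldoa 186, Slc2a1 165, Slc2a3 130, Ldha 91.2, Hk2 68.3, Eno1 39.7, Pgk1 13.5, Pfkp 9.21 and Hk1 7.20. These joined lengths exceed the coding sequence unequally, at 13401 against 2352 bases for Pfkp and 3506 against 1476 for Slc2a1. The order depends on them. Pgk1 collected 114 to 201 counts per library and its 2 counted pseudogenes, Gm5537 and Pgk1-rs7, 17 counts in all. For Pgk1 and Eno1 the counts are therefore uncertain, since the treatment of reads that map to several places is not stated. The part of the shared sequence in their low level was not tested.

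Counted copies of some size belong to Pkm, Eno1 and Aldoa. Eno1b, a copy of Eno1 annotated as coding, is 99.4% identical to it over all 1302 coding bases and drew 163 to 257 counts per library, a median of 19.5% of the Eno1 counts. Aldoart1 and Aldoart2, coding copies of Aldoa at 93.6 and 91.7% identity, together drew a median of 9.42% of the Aldoa counts. None of the 3 was called in the average over AHA (adjusted p of 0.745, 0.881 and 0.943 in edgeR, with genes of all biotypes). For Pkm, the pseudogene Gm6560 on chromosome 5 (22724578 to 22726168) is 98.4% identical to the coding sequence of Pkm, with 26 differences over 1593 aligned positions, and drew 776 to 1252 counts per library where Pkm drew 5455 to 8006. The window of 90 bases with most differences, bases 336 to 425 of the coding sequence, is given from both genes, with the differing bases in capitals.
Pkm: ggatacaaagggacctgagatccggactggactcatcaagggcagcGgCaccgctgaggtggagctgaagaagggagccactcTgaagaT
Gm6560: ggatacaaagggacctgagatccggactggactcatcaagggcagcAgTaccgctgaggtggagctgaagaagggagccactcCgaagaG
Even here only 4 of 90 bases separate them, and the longest run without a difference is 195 bases. Counts on copies annotated as pseudogenes came to 14.1 to 17.0% of the Pkm counts over the libraries, and to 4.77% of the Eno1, 2.93% of the Ldha and 0.551% of the Aldoa counts at the median. Adding the pseudogene counts to Ldha left its call in place (-0.127, adjusted p = 0.00114). The other 3 called genes have no pseudogene counts to add, and the coding copies were not added.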

How the data were processed

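The authors trimmed reads with Trim Galore 0.4.4, aligned them with GSNAP to mm10, counted them per Ensembl gene with HTSeq, and deposited raw counts for all 18 libraries. The strand setting, read length and treatment of multi-mapped reads are not given in the sources used here. Symbols, biotypes and exon lengths were taken from GENCODE. The 10 genes and all lists were chosen with earlier results of these data known. Protein-coding genes passing filterByExpr (13438) were fitted in edgeR 4.0.16 (TMM, robust quasi-likelihood, 1 mean per group) on 17 libraries, the library with an ERCC share above 1.5 times the median being left out. P-values were adjusted over all genes. ERCC, SIRV and the HTSeq summary lines (61.5 to 64.0% of all lines' counts) stayed out of library sizes. Pair ratios used counts plus 0.5. Copies were searched with BLASTN 2.17.0. The procedure was tested on simulated counts. The genes named by rule are the 10, the second gene of each pair, called genes of the pathway lists and the 3 closest to Slc2a1. Hif1a, Gapdh, some markers, copies and overlapping neighbours are named beyond that rule. Alternatives were other scalings, DESeq2 1.42.0, filters, gene sets, libraries and added pseudogene counts. Counting depth limits precision, and intervals cover the spread between libraries.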

Additional observations from a re-analysis of the deposited data

Results flagged for a closer look

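In 32 sets of libraries (10 genes and 6 ratios, soft and stiff apart) the highest or lowest library was compared with the rest, and chance flags about 1 such set in 20. Only 2 of the 32 sets were flagged, about as many as chance gives. The second soft library at high AHA was flagged for both Slc2a3, where it read 1032 CPM and the other 7 soft libraries 857 to 923, and Pkm, where it read 1188 CPM and the others 1246 to 1297. It is the highest soft library for the former and the lowest for the latter. Its ERCC share of 0.610% was within the range of the other fitted libraries, its share of counts outside annotated genes (23.7%) was the lowest of the 18 libraries, and its 2 replicate pairs differed the most of all 18 pairs (2.996 and 2.826 times the sampling noise).

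Counts on pseudogenes, which no comparison above uses on its own, were present in every library for Pkm (median 15.2% of the counts of the parent gene), Eno1 (4.77%), Ldha (2.93%) and Aldoa (0.551%), and for Pgk1 had a median of 0.518% and a minimum of 0%.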

How the results depend on the processing

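Of 581 values recomputed under another setting, 552 kept their direction and call or, for counts of genes, stayed within 1.5 times. Leaving out 1 library moved the number of genes called to between 1 and 3 at low AHA, 1 and 3 at mid AHA, 0 and 1 at high AHA, and 0 and 1 for both high against low AHA and any AHA difference on soft. It moved the averaged log2 difference of Slc2a3 between -0.111 and -0.045, Aldoa between -0.0745 and -0.0466 (called without the third stiff library at mid AHA, adjusted p = 0.0481 in edgeR), Hk2 between -0.010 and 0.0143 Pgk1 between -0.0131 and 0.0637, Eno1 between -0.0442 and -0.00844 and Pkm between -0.051 and -0.0125, the last 4 not called in any of these. The ratio differences ran from -0.142 to -0.0885 for Hk2/Hk1 (called without the second soft library at mid AHA or the second stiff library at low AHA), from -0.0237 to 0.120 for Aldoa/Aldoc and from -0.281 to 0.166 for Eno1/Eno2. With all 18 libraries Hk2 was at -0.00178. The cause of these changes was not tested, apart from the loss of a library. The 4 calls of the average held in all 7 other settings (the added pseudogene counts bear on Ldha alone of the 4), with adjusted p up to 0.0458 for Slc2a3. No paired analysis was possible because the labels share no replicate numbers between groups. With 2 fitted libraries, the soft, high AHA group has the least depth behind it.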

Other observations

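In the fit with genes of all biotypes, chosen for its values after they were seen, the Pkm pseudogene Gm6560 was lower on soft gels by -0.11 ± 0.034 in log2 (adjusted p = 0.0232, edgeR), while Pkm itself in the protein-coding fit was at -0.029 ± 0.022 (adjusted p = 0.484). The difference between these values was not tested. Pseudogene counts were 14.1 to 16.0% of the Pkm counts in the soft and 14.3 to 17.0% in the stiff libraries.

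Gapdh, the glycolytic enzyme often used as a reference gene, was counted at a mean of 36.5 CPM on soft and 37.5 CPM on stiff, 8.96 CPM per kb of exon, with a difference of -0.074 ± 0.072 in log2 (adjusted p = 0.628, edgeR). Its copies were not searched and the treatment of reads that map to several places is not stated, so this level is uncertain. It was picked after its values were seen.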
